A study of Homo sapiens with 8 samples.

Results

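In hypoxic T47D cells, 591 promoter regions were occupied by HIF-1β in both replicates while none of the other 3 cancer cell lines analysed here had a site there, out of 3837 HIF-1β regions on the main chromosomes over the 4 lines. A site of a line was a merged region in which a peak of one replicate shared 1 bp or more with a peak of the other, the sites of the 4 lines were merged in the same way, and a region was kept when T47D alone had a site in it and its nearest base lay within 2 kb of the transcript start of a protein-coding gene. The members were therefore chosen by measured peaks, and their scores and their absence from other lines are given as a description. All 8 libraries, 2 from each line, were ChIP-seq with an antibody to HIF-1β on cells held for 16 h in 0.5% oxygen. T47D is an oestrogen receptor positive breast cancer line, and the others were PC-3 (prostate), A549 (lung) and HCT-116 (colorectal). No normoxic or control library was analysed here, so these regions cannot be divided into those that need hypoxia and those that do not. Each line is a single cultured line, so a region of T47D alone belongs to this line and not to breast cancer as a tissue, and no expression values were at hand with which to check the line against its markers.

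HIF-1β, also known as ARNT, is the constitutive partner of the oxygen-regulated HIF-α subunits, and the dimers bind DNA at a short core, ACGTG or GCGTG. It also pairs with the aryl hydrocarbon receptor and other proteins of the bHLH-PAS family, and the antibody does not tell these dimers apart. Promoters bound by HIF-1 in many cell types include those of glycolytic enzymes and of the enzymes that degrade HIF-α itself.

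The regions at the head of the list by peak score show what their DNA looked like, and sequences on GRCh37 are given so that regions with a core at the centre can be set beside regions without one. Capitals mark each ACGTG or GCGTG on either strand, so the palindrome CACGTG counts on both. The strand printed is that of the named gene. Of the 6 highest-scoring regions with a core in their central 200 bp, PARD6B and PTP4A2 are shown over those 200 bp (chr20:49344394-49344593, plus strand, and chr1:32404374-32404573, minus strand). RAB21 (chr12:72148573-72148642, plus strand) and ABHD12 (chr20:25320386-25320517, minus strand) are shown where the central 200 bp lay outside annotated UTR exons. PIK3R1 (chr5:67584315-67584339, plus strand) and ZNF470 (chr19:57078965-57078989, plus strand) are shown only as 25 bases around the core nearest to the centre, because no stretch of 30 bases or more with a core lay outside UTR exons there.
PIK3R1: gccgggcgggGCGTGgggcggaggg
ZNF470: tgggcggcggGCGTGaGCGTGcgcg
PARD6B: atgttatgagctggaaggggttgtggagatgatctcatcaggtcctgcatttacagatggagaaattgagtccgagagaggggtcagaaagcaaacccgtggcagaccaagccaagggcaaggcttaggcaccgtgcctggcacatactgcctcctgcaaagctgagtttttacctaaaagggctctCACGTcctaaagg
PTP4A2: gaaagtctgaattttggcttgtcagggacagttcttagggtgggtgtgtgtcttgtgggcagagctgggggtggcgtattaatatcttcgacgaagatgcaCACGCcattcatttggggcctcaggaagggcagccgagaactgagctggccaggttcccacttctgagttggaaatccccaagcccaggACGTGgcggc
RAB21: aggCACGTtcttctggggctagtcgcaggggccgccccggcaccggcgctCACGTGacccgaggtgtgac
ABHD12: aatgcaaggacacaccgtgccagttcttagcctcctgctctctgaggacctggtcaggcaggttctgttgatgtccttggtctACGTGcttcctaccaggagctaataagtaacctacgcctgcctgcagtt

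The 2 highest-scoring regions with no core in the central 200 bp were those of DHX35 (chr20:37589075-37589274, plus strand) and MKNK2 (chr19:2051994-2052193, minus strand).
DHX35: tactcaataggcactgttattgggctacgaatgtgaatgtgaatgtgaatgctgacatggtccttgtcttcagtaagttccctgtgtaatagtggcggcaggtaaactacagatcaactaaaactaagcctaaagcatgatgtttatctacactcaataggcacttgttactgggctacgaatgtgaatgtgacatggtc
MKNK2: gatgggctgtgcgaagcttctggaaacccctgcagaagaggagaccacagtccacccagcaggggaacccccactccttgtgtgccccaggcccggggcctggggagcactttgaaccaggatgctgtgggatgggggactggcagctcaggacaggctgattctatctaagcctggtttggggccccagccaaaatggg

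The region at a transcript start of PIK3R1, a gene of regulatory subunits of phosphoinositide 3-kinase, had the highest scores (chr5:67583372-67585311). Its score, the deposited measure of peak strength, was 1202 in T47D replicate 1 and 1391 in replicate 2. Only 1.08% of the peaks of replicate 1 and 1.2% of those of replicate 2 scored higher, and none of the 6 libraries of the other lines had a peak there. Its centre lay at -181 bp from the nearest start (negative values are upstream), in a UTR exon of another transcript, and its 200 central bases had 2 copies of the core, a GC content of 73% and a CpG observed to expected ratio of 0.98. The next region, 888 bp at its nearest base from a start of DHX35, a DEAH-box RNA helicase gene, was far less even, at 394 in replicate 1 and 1122 in replicate 2. It was 1 of 3 members without a core anywhere between its ends (chr20:37588295-37590054, 1760 bp). The third, at MKNK2, whose kinase phosphorylates the cap-binding factor eIF4E, scored 393 and 602 (chr19:2050899-2053289). That region had no core in its centre but 13 over its whole width.

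The remaining regions among the 20 highest lay within 2 kb of transcript starts of genes of varied function. FAM178B scored 456 in replicate 1 and 421 in replicate 2, and FAM174B scored 383 and 436. ZNF470, a zinc finger gene, scored 339 and 393 and had 5 copies of the core in its centre. In order of mean score, these were followed by PARD6B, a cell polarity gene (415 and 303), and by ITPR1, the gene of an inositol trisphosphate receptor (226 and 441). AMZ1, a metallopeptidase gene, scored 342 and 321, and PTP4A2, a tyrosine phosphatase gene, 294 and 334. RAB21, which encodes an endosomal GTPase, scored 368 and 243, with 4 copies of the core in the central 200 bp. ABHD12, a lipase gene, scored 269 and 335. The shared promoter of FKBP15 and SLC31A1, the copper importer, scored 295 and 306. The last of the 20 were SINHCAF (351 and 238), TMTC2 (174 and 399), SP1 (325 and 212), RBM39 (288 and 243), SYT8 (220 and 307), ST6GAL1 (145 and 366) and ESRP2 (276 and 226). SP1 encodes the factor that binds GC boxes, RBM39 a splicing factor, ST6GAL1 a sialyltransferase and ESRP2 an epithelial splicing regulator. The 20 regions were spread over 12 chromosomes. Of the 20, 12 had no peak in any library of another line, 10 had a core in the centre and 8 had a CpG ratio under 0.4. Over all 591 members these shares were 50.8%, 66.5% and 11.2%. The 5′ end of a gene record lay within 2 kb of 13 of the 20, against 491 of the 591, and the others were at alternative starts only.

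Over all 591 members, the score ran from 50 to 1202 in replicate 1, with a median of 84.5, and from 50 to 1391 in replicate 2, with a median of 81.2. Only 26 members scored above 200 in both replicates, and 313 scored below 100 in both. The replicates agreed in part. Scores were within 1.5-fold of each other at 418 members (70.7%), 287 scored higher in replicate 1 and 304 in replicate 2, and 40 regions were among the 60 highest in both. Spearman's rho of the scores across members was 0.446, a description over regions of the same pair of libraries. For comparison, the 664 promoter regions shared by T47D and at least 1 other line had median scores of 149 and 163, and the 167 promoter regions of all 4 lines had 368 and 420. T47D-only regions away from promoters, 580 in all, had medians of 101 and 105. Within the whole list, 49.4% of the T47D-only promoter regions in replicate 1 and 56.9% in replicate 2 fell in the lower-scoring 50%.

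**Figure D1:**
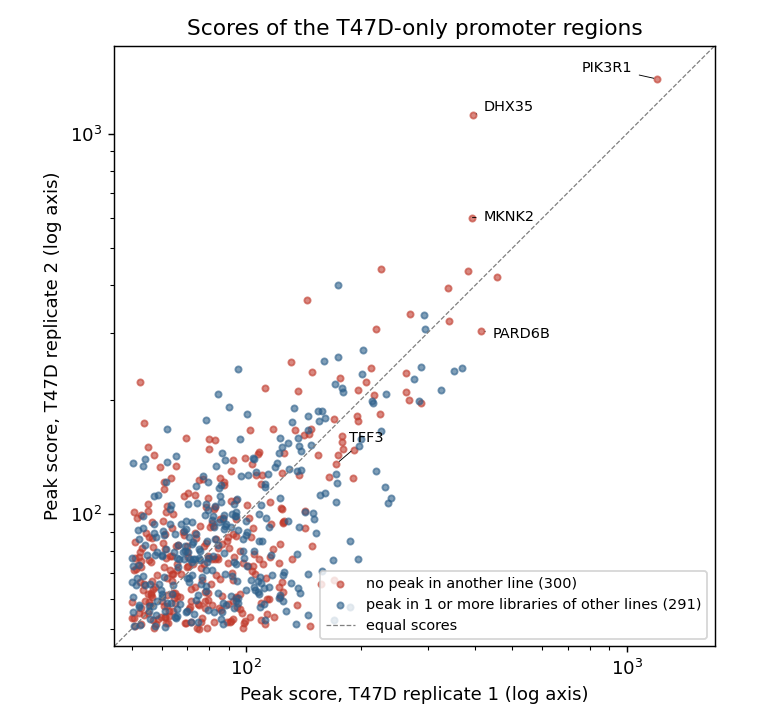
Peak scores of the 591 T47D-only promoter regions in T47D replicate 1 (horizontal) and replicate 2 (vertical), both on log axes, 1 point per region. Red points have no peak in any library of another line, blue points have a peak in 1 or more libraries of other lines, and the dashed line marks equal scores. PIK3R1 stands at the top right, and 313 regions sit below a score of 100 in both replicates.

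At the limits of the rule, the members farthest from a start were those nearest AHNAK (1982 bp, scores 56.8 and 52.6), SRL (1825 bp, 92.1 and 139) and PARD6B (1818 bp). Just outside were T47D-only regions near MXRA8 (2151 bp, scores 60.4 and 85.7), ZNF707 (2163 bp, 92.0 and 134) and TNS2 (2207 bp, 145 and 135). The members nearest to the score floor were NDEL1, with 75.3 and 50, EPB41L4B, with 50.05 and 76.8, and DCAF5, with 50.07 and 66.3. No list held a peak below 50, so no region just outside the score limit could be given. Promoter peaks of a single T47D replicate that overlapped no peak of any other library, which the rule left out, numbered 367 in replicate 1 and 230 in replicate 2.

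The rule removed regions with peaks in both replicates of another line but kept those with a peak in 1. Such a peak lay at 291 of the 591 members, or 49.2% (95% exact binomial interval 45.1 to 53.3%, which covers counting error only), and 300 members had none. The peaks came mostly from 1 library, since HCT-116 replicate 2, the longest list with 3790 peaks, had a peak at 236 members (39.9%) and HCT-116 replicate 3, with 1913 peaks, at 8. In PC-3, a peak lay at 97 members in replicate 2 (2891 peaks) and 7 in replicate 1 (1042 peaks). A549 replicate 2 had a peak at 22 members and replicate 3 at 6. HCT-116 replicate 2 was the sole other library at 164 members, and 9 members had a peak in 3 other libraries, among them SP1. T47D-only regions away from promoters had such a peak at 80 of 580 (13.8%, interval 11.1 to 16.9%), and HCT-116-only promoter regions at 209 of 425 (49.2%, interval 44.3 to 54.0%). With HCT-116 replicate 3 left out, so that a peak in replicate 2 sufficed for a site, 356 regions were counted as T47D-only promoter regions. With a single T47D replicate the number rose to 954 without replicate 1 and 1098 without replicate 2.

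**Figure D2:**
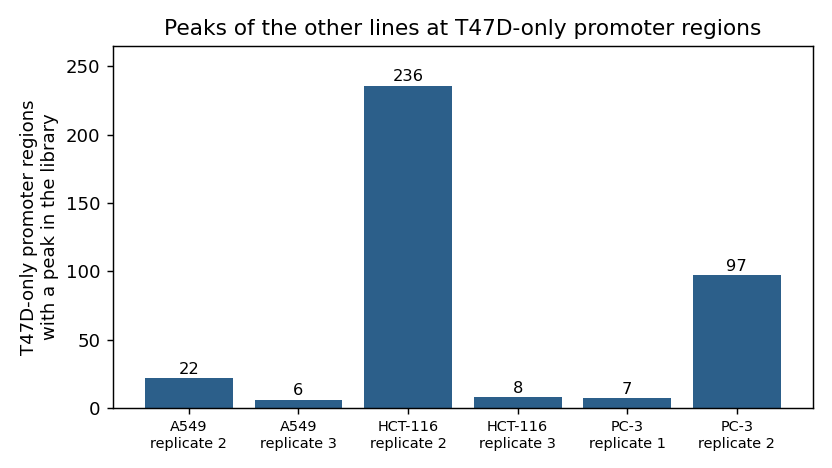
Number of the 591 T47D-only promoter regions (vertical axis, from 0) that overlap a peak of each library of the other 3 lines, 1 bar per library. HCT-116 replicate 2 and PC-3 replicate 2 account for most of the overlaps, with 236 and 97 regions, against 8 and 7 in the other replicate of the same lines.

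The highest raw score among these peaks was at the promoter of DDX42, an RNA helicase gene. It was 277 in HCT-116 replicate 2, where 14.2% of peaks scored higher, beside 68.1 and 79.5 in the T47D replicates. AP3S2, an adaptor complex subunit gene, had 234 in PC-3 replicate 2 beside 129 and 96.1 in T47D. MXI1, SRCAP, CCDC86 and EMC9 followed, all in HCT-116 replicate 2, with scores from 183 to 216. Scores are not on a common scale between libraries, but 61.4% of the HCT-116 replicate 2 peaks at members and 78.4% of those of PC-3 replicate 2 lay in the lower-scoring 50% of their own lists. A site of another line lay within 25 kb of 64 members (10.8%). Another T47D site lay within 25 kb of 75 members.

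Most regions covered a start. A protein-coding transcript start was covered by 535 of the 591 regions (90.5%), the centre was within 100 bp of the nearest start in 259 and within 500 bp in 500, and 47 centres were more than 1000 bp away. The median signed distance was -9 bp, with 316 centres upstream and 272 downstream. The centre fell in a UTR exon of a protein-coding transcript in 189 members, in an intron in 177, in a coding exon in 61 and outside transcripts in 164. The 5′ end of a gene record lay within 2 kb of 491 members, and the remaining 100 were at a start of an alternative transcript only. Within 2 kb lay 1 gene for 490 members, 2 for 93 and 3 or 4 for the rest, 688 gene names in all. The median width was 1440 bp, close to that of HCT-116-only promoter regions (1380 bp) and below that of promoter regions of all 4 lines (1936 bp).

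Position within the promoter was not used by the rule beyond its limit and was tested. That limit applied to the nearest base, so the centre of a wider region could lie farther from a start. Regions of all 4 lines were wider than the members (median 1936 bp against 1440 bp), and the part of width in the distances was not tested. The mean distance of the centre from the start was 306 bp (SD 521, n = 591), against 289 bp (SD 447, n = 425) for HCT-116-only promoter regions (permutation test with 100000 resamples, two-sided, adjusted p = 0.59 over 2 comparisons). In 14 alternatives the adjusted p of this difference ran from 2e-05 to 0.94, and it was called in 1, without HCT-116 replicate 3, where it was 131 bp (permutation test, adjusted p = 2e-05). For promoter regions of all 4 lines it was 419 bp (SD 657, n = 167; permutation test, adjusted p = 0.037), but that difference of -113 bp lost its call in 10 of 14 alternative settings (adjusted p 0.012 to 0.91). Among these were 6 that left out 1 library, each of the A549, HCT-116, PC-3 replicate 1 and T47D replicate 1 libraries, and it was -6.81 bp without HCT-116 replicate 3. Starts of genes on opposite strands, a divergent promoter, were within 2 kb of 84 members (14.2%), of 12.9% of HCT-116-only regions (odds ratio 1.115, Fisher's exact test, adjusted p = 0.58) and of 10.2% of regions of all 4 lines (odds ratio 1.46, adjusted p = 0.40). In these tests regions are the units, so that the p-values measure counting over regions and not the spread between cultures.

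**Figure D3:**
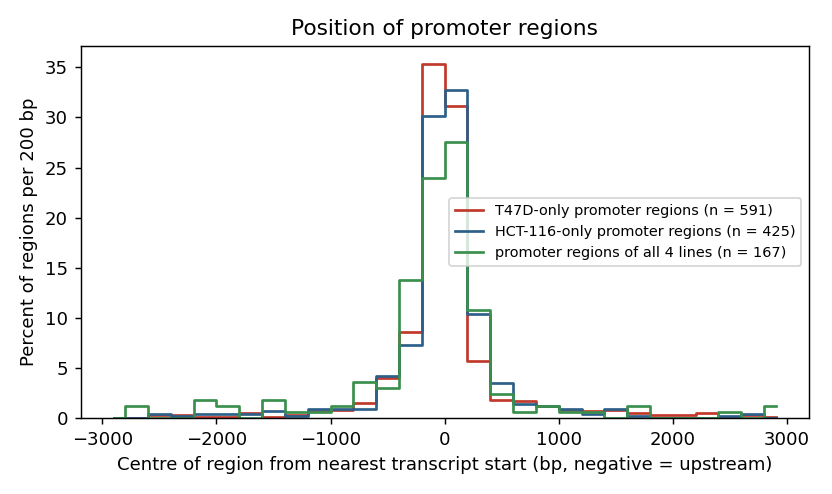
Distance of the region centre from the nearest protein-coding transcript start (horizontal axis, bp, negative upstream) as percent of regions per 200 bp (vertical axis) for T47D-only promoter regions, HCT-116-only promoter regions and promoter regions of all 4 lines. All 3 distributions peak at the start, with median distances of 121, 129 and 182 bp.

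The HIF core was present in the central 200 bp of 393 members (66.5%, interval 62.5 to 70.3%), against 42.7% of 20113 windows of 200 bp around the 5′ ends of protein-coding genes. The windows were not matched to the members in base composition, and the part of composition in this gap was not tested. ACGTG alone was in 38.7% of members and 16.3% of these windows, and GCGTG in 46.7% and 32.5%. In 100 bp bins along the regions, the share with a core was 42.1% and 41.8% on either side of the centre and 18.1% and 18.3% at the outer bins, about 1000 bp away. Over the whole width, 99.5% of members held a core, with a median of 3.77 per kb. Members with a core in the centre had a median mean score of 84.9, and the 198 without had 83.4.

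Compared with T47D-only regions away from promoters, of which 49.3% had a core, the share in promoters was 17.2 percentage points higher (odds ratio 2.04, Fisher's exact test, two-sided, adjusted p = 8.8e-09 over 3 comparisons), a call made in all 16 alternative settings (adjusted p from 1.4e-17 to 0.0026). The median GC content of the centre was 66.0% in the promoter regions and 51.5% in the others, and the median CpG observed to expected ratio was 0.85 and 0.28. Both forms of the core contain a CpG, and the part of base composition in the difference was not tested. HCT-116-only promoter regions had a core in 72.2%, and the difference of -5.74 points did not pass Fisher's exact test (odds ratio 0.763, adjusted p = 0.082). It passed in 6 of 16 alternatives, with values between -6.35 and -12.9 points (adjusted p over all 16 from 0.00012 to 1). These were the restriction to regions with no peak in any library of another line and the omission of T47D replicate 1 or 2, HCT-116 replicate 2 or 3, or PC-3 replicate 1. Promoter regions of all 4 lines had a core in 70.1% (odds ratio 0.848, Fisher's exact test, adjusted p = 0.40). The difference from these, -3.56 points, passed the test only over the central 400 bp (-6.77 points) and without T47D replicate 2 (-9.83 points).

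**Figure D4:**
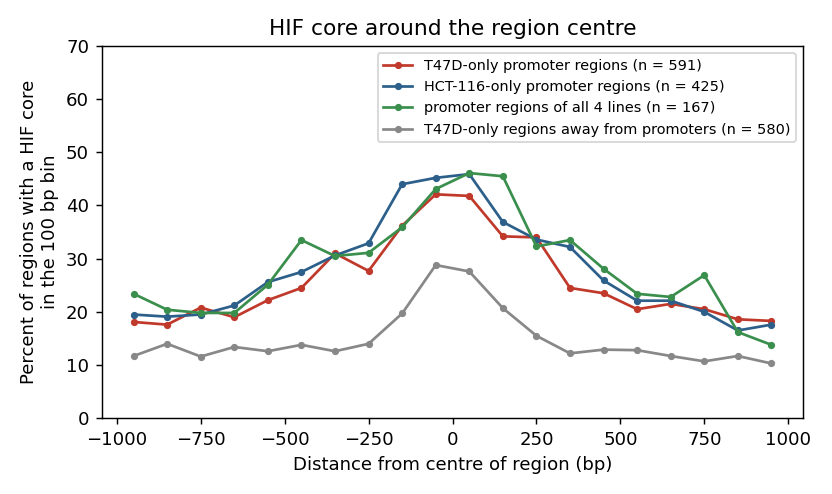
Percent of regions with ACGTG or GCGTG on either strand in each 100 bp bin (vertical axis) by distance from the region centre (horizontal axis, bp) for 4 sets of regions. T47D-only promoter regions reach 42.1% beside the centre, HCT-116-only promoter regions and promoter regions of all 4 lines between 43.1% and 46.1%, and T47D-only regions away from promoters 28.8%.

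Motifs of other factors were counted in the same windows. The E-box CACGTG, which contains the core, was in the central 200 bp of 51 members (8.63%, against 5.85% of the gene 5′ end windows), the GC box GGGCGG in 52.6% (46.6%), the ETS motif CCGGAAG in 10.5% (10.1%) and the CRE TGACGTCA in 1.52% (1.85%). The palindromic NRF1 motif was in 1.18% (1.22%) and the AP-1 motif TGANTCA in 2.88% (3.87%). The forkhead motif TGTTTAC was in 5 members (0.846%, against 1.40%). The palindromic oestrogen response element with a spacer of any 3 bases was in none, and in 0.0348% of the windows. In T47D-only regions away from promoters the last 2 motifs were in 7.41% and 1.21%. These counts, on both strands and of exact letters only, are descriptions.

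Most members had CpG-rich centres, but a minority did not. The mean CpG observed to expected ratio of the central 200 bp was 0.789 (SD 0.278, n = 591), against 0.828 (SD 0.224, n = 425) in HCT-116-only promoter regions (permutation test, adjusted p = 0.034 over 2 comparisons) and 0.825 (SD 0.247, n = 167) in promoter regions of all 4 lines (permutation test, adjusted p = 0.13). The difference of -0.0391 from HCT-116-only regions missed the threshold in 8 of 16 alternatives, among them those without A549 replicate 2 (-0.037), T47D replicate 1 (-0.0198) and T47D replicate 2 (-0.0172), with adjusted p from 2e-05 to 0.35 over all 16. The difference from regions of all 4 lines passed it in 3, without HCT-116 replicate 3 (-0.102), without PC-3 replicate 1 (-0.0473) and in the regions described next. For the 300 members with no peak in any library of another line, a subset picked by peaks, the differences were larger. The difference was -0.117 from the 216 HCT-116-only regions restricted in the same way (permutation test, adjusted p = 2e-05). It was -0.124 from the 167 regions of all 4 lines, which were not restricted (permutation test, adjusted p = 2e-05).

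A ratio under 0.4, a limit set after the values were seen, was found in 66 members, 60 of which had no peak in another line. Put the other way, 20% of the 300 members without such a peak and 2.06% of the 291 with one were CpG-poor. The same limit was met by 5.18% of HCT-116-only promoter regions and 8.38% of promoter regions of all 4 lines. It was met by 69.5% of T47D-only regions away from promoters, of which 13.8% had a peak in another line. The 66 regions had a median mean score of 96.7, against 83.3 in the other 525, and 57.6% of them covered a transcript start, against 94.7%. A core was in the centre of 39.4% of them, against 69.9%, which the limit itself lowers, because both forms of the core contain a CpG. A gene 5′ end lay within 2 kb of 56.1% of the 66 regions, against 86.5% of the other 525. While 84 of the other 525 were divergent promoters, none of the 66 was. They included 8 of the 20 highest-scoring members (DHX35, MKNK2, FAM178B, FAM174B, PARD6B, ITPR1, SYT8 and ST6GAL1), and 6 of the 9 regions at luminal breast genes described below. The share of CpG-poor regions was 21.2% in the highest-scoring 118 members and between 6.72% and 10.2% in each of the 4 lower groups of 118 or 119.

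The genes near the members were counted by lists of gene families and pathways. Of 19794 protein-coding gene names, 3.48% had a T47D-only promoter region, 7.42% had any T47D site within 2 kb of a start and 2.45% had an HCT-116-only promoter region. These counts are descriptions without a set test, and the lists were chosen with earlier results of these data known.

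Genes of the oestrogen receptor and luminal breast programme had the highest share of any list, at 7 of 51 (13.7%). Some T47D promoter site was at 14 of the 51 (27.5%, against 7.42% of all genes), so the list was also high for T47D sites in general. An HCT-116-only promoter region was at 1 of the genes and a promoter region of all 4 lines at 3. The 7 genes had 9 regions, none of which had a peak in any library of another line. Over all 591 members, 50.8% had no such peak. A core was in the central 200 bp of 4 of the 9, against 66.5% of all members. Of the 9 regions, 6 had a CpG ratio under 0.4. Among all 66 members under that limit, 90.9% had no peak in another line and 39.4% had a core in the centre. Whether the luminal regions differ from other CpG-poor members was not tested. The highest luminal region was at RERG, the gene of an oestrogen-regulated RAS-like GTPase (chr12:15368464-15370000), which scored 176 in replicate 1 and 228 in replicate 2. EHF, which encodes an epithelial ETS factor, had 3 regions, at chr11:34652420-34654608 (148 and 236), chr11:34654902-34656192 (105 and 69.6) and chr11:34660788-34662584 (180 and 148), so its regions are neighbours and not independent observations. GREB1, an oestrogen-induced coactivator of the oestrogen receptor, had a region whose centre lay at -253 bp from the nearest start (chr2:11679063-11680369) with scores of 192 and 147. At TRPS1, a GATA-type repressor gene, the scores were 178 and 161. TFF3, which encodes a secreted trefoil peptide, scored 173 and 136 (chr21:43734842-43736094). GATA3, a luminal lineage factor gene, scored 79.2 and 59.6 at a region whose centre lay at -2499 bp from the nearest start (chr10:8091634-8094501). TFAP2A, the gene of transcription factor AP-2α, scored 78.8 and 50.4 (chr6:10418768-10420665). RERG, EHF, GREB1, TRPS1 and TFF3 each had a region among the 72 highest of the 591 by mean score, while GATA3 and TFAP2A ranked 446 and 491. Centres of the RERG, EHF and GREB1 regions lay in introns of protein-coding transcripts, with CpG ratios between 0.08 and 0.17. Those of TRPS1 and GATA3 lay in introns too. The nearest start can be that of an alternative transcript, and the list counts do not separate such starts from gene 5′ ends.

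Centres of GATA3 and GREB1 are shown because they contrast in the core, and they were chosen after their values were seen. GATA3 (chr10:8092968-8093167, plus strand) carries the palindrome CACGTG, and GREB1 (chr2:11679616-11679815, plus strand) carries neither form.
GATA3: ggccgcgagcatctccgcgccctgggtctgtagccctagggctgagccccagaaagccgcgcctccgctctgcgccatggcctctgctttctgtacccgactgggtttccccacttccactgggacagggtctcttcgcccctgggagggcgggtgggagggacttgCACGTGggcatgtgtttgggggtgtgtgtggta
GREB1: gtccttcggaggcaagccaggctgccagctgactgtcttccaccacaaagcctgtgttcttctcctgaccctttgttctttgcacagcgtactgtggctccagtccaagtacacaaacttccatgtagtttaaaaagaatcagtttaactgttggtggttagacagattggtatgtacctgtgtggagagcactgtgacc

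Known HIF targets were among the members at the background share. Of 58 such genes, 2 (3.45%, against 3.48% of all genes) had a T47D-only promoter region, while 49 had some T47D promoter site and 38 a promoter region of all 4 lines. LOX, the gene of lysyl oxidase, scored 76.5 and 53.3 at chr5:121412271-121414520, with no peak elsewhere and 14 cores over the region but none in its centre. MXI1, which encodes a MYC antagonist, scored 66.4 and 76.1 at chr10:111985820-111987592. HCT-116 replicate 2 had a peak of 216 at the same place, and sites of A549, HCT-116 and PC-3 lay within 25 kb, the nearest 14708 bp away, so the MXI1 locus had sites of the other lines too. The MXI1 region held 48 cores, 5 of them in the centre, and the stretch outside UTR exons (chr10:111986644-111986752, plus strand), also chosen for display after its values were seen, has GCGTG 4 times in near-repeats.
MXI1: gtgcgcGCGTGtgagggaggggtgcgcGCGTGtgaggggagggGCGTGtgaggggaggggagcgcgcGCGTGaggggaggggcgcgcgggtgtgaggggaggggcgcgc

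Of 26 genes of the HIF and AHR group, 1 was a member (3.85%, against 3.48% of all genes). It was TIPARP, an AHR-induced ADP-ribosyltransferase gene, with scores of 108 and 76.3 (chr3:156391350-156393988), no core in the centre and no peak elsewhere. Of 21 circadian clock genes, 1 was a member (4.76%), PER1, with 112 and 52.7 (chr17:8059174-8060569). PER1 had 3 cores in its centre, a peak of 73.3 in 1 library of another line and an HCT-116 site 15782 bp away.

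The next shares were those of a list of translation factor genes and of RNA splicing and helicase genes, both gathered by gene symbol. The translation list had 8 of 73 (11.0%), with EIF1AD (188 and 85.2), EIF3E (87.5 and 119), EEF1AKMT3 (70.1 and 107) and EIF4ENIF1 (96.3 and 80.2) highest. EIF3E encodes a subunit of initiation factor 3, EIF4ENIF1 the transporter of eIF4E and EEF1AKMT3 a methyltransferase, and the region of EIF1AD is shared with BANF1, so the count is not one of initiation and elongation factors alone. RNA splicing and helicase genes had 19 of 189 (10.1%), led by DHX35 and RBM39, then DDX50 (95.4 and 241) and DHX15 (136 and 78.6), both RNA helicase genes. Both lists were also high for T47D sites in general. Some T47D promoter site was at 15 of the 73 (20.5%) and 34 of the 189 (18%), against 7.42% of all genes. HCT-116-only promoter regions were at 3 of 73 (4.11%) and 8 of 189 (4.23%) of these genes, also above their own background of 2.45%. A peak in another line lay at 10 of the 19 splicing and helicase regions, against 49.2% of all members.

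Genes of vesicle traffic had 20 of 254 (7.87%), and 31 (12.2%, against 7.42% of all genes) had some T47D promoter site. RAB21 was highest, followed by VPS26C, a retriever subunit gene (171 and 220), RAB5B (240 and 111, on a region shared with PMEL and without any core) and SEC31A, a COPII coat gene (146 and 181). Of these 20 regions, 16 had a core in the centre, against 66.5% of all members. DNA replication and cell cycle genes had 10 of 145 (6.90%), with POLD3, a DNA polymerase δ subunit gene (112 and 120), CDK12 (136 and 57.8), CDKN3 (74.2 and 107) and CCNT1 (86.5 and 83.4) highest.

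Cytosolic ribosomal protein genes had 5 of 86 (5.81%), all with a peak in another line, against 49.2% of all members. Of these, RPS29 (284 and 198) was highest, and RPL3 (53.6 and 134) and RPL5 (91.3 and 61.0) were others. Histone genes had 5 of 80 (6.25%) on 3 regions, because H2BC9 and H3C7 share one (217 and 206) as do H3C1 and H4C1 (122 and 74.6). Proteasome genes had 3 of 50 (6%), PSMD5 (85.1 and 112), PSMA6 (81.1 and 96.6) and PSMF1 (109 and 58.4). Histone methyltransferase and demethylase genes had 4 of 69 (5.8%), which were HR (116.2 and 94.2), KMT5A (102 and 53.6), SETD1A (75.6 and 75.8) and KDM2B (66.2 and 82.9). None of the latter 4 regions had a core in the centre, against 66.5% of all members, but 4 regions are few. Autophagy genes had 2 of 36 (5.56%), ATG5 (108 and 146) and ATG13 (188 and 57.2). The share over all genes was 3.48%.

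Zinc finger genes, the largest family counted, were at the background with 20 of 562 (3.56%), of which the first were ZNF470, ZNF511 with its readthrough ZNF511-PRAP1 on 1 region (233 and 207), and ZNF350 (206 and 222). Ubiquitin pathway genes had 16 of 413 (3.87%), led by RNF223 (224 and 184), OTUD6B (197 and 151), USP34 (157 and 113) and KLHL32 (142 and 101). DNA repair genes had 4 of 91 (4.40%), with ERCC6L2 (160 and 252), PMS2 (112 and 97.5), RAD23B (70.7 and 68.0) and PMS1 (59.6 and 63.4).

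Below the background were the solute carriers with 10 of 373 (2.68%), first among them SLC31A1, SLC15A3 (170 and 178), SLC44A1 (87.2 and 121) and SLC25A25 (115 and 92.5). Chromatin remodelling and acetylation genes had 3 of 103, KAT6A (93.9 and 74.0), CHD9 (77.3 and 74.0) and KAT5 (71.1 and 57.2). Mitochondrial ribosomal proteins had 2 of 78, MRPS23 (68.5 and 90.5) and MRPL40 (66.3 and 83.0). The remaining lists had 1 gene each, namely NDUFA4 of 90 oxidative phosphorylation subunits (57.2 and 50.2), EPRS1 of 37 aminoacyl-tRNA synthetases (140 and 131), HOXC10 of 39 HOX genes (149 and 82.3), TOMM6 of 46 mitochondrial import genes (79.5 and 77.6) and LOX of 50 collagens and lysyl oxidases. Where 2 genes share a promoter, as FKBP15 and SLC31A1 do, the region cannot be assigned to either.

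**Figure D5:**
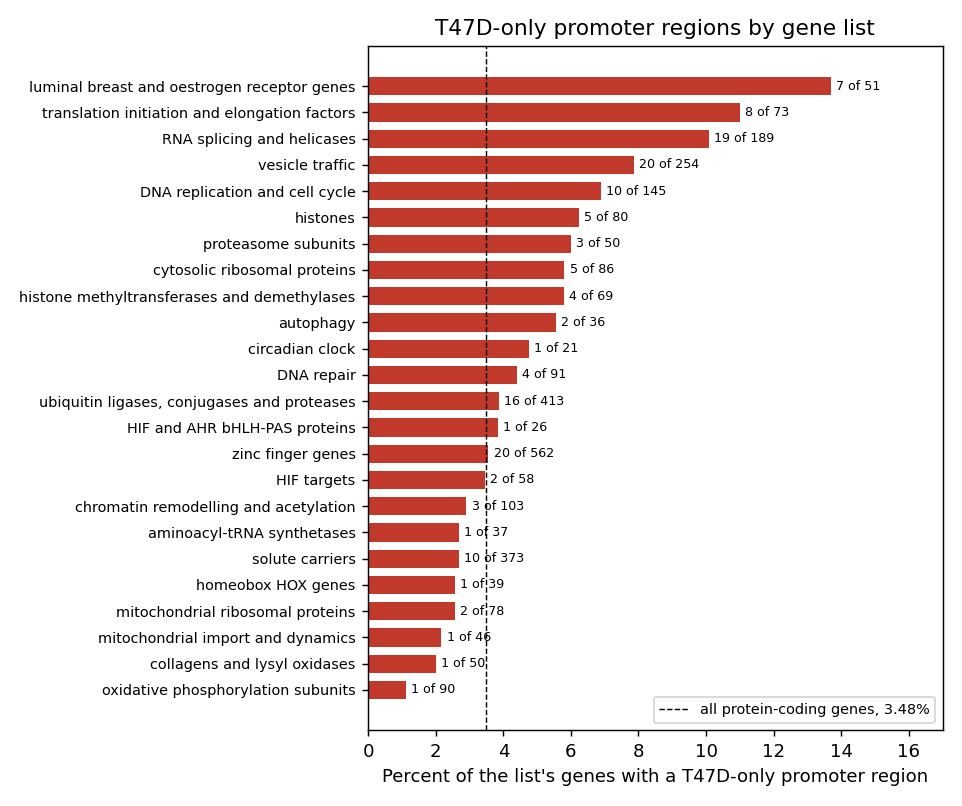
Percent of the genes of each of 24 lists that have a T47D-only promoter region (horizontal axis, from 0), with the counts beside each bar. The dashed line marks the share of all protein-coding genes, 3.48%. Luminal breast and oestrogen receptor genes reach 13.7%, the translation list 11.0% and RNA splicing and helicase genes 10.1%, while HIF targets sit at the line with 3.45%.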

How the data were processed

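HIF-1β ChIP-seq had been performed in duplicate in T47D, PC-3, A549 and HCT-116 cells at 0.5% oxygen for 16 h. Per the paper's methods and the submitters' processing notes, the authors trimmed reads with Trim Galore 0.3.3, aligned them to GRCh37 (hg19) with BWA 0.7.5a-r405, handled them with SAMtools 0.1.19, Picard 1.106 and bedtools 2.17.0, and called peaks in each library with MACS (version not given in the sources used here) and with T-PIC. The deposited lists give intervals and a peak score without a header, with a lowest value between 50 and 50.09 in every list. The formula of the score and the T-PIC step cannot be seen in these lists, and no reads were at hand, so depth is unknown. Scores of different lines were not tested against each other. The highest-scoring peaks of other lines at members were picked by raw score across libraries, although scores have no common scale between them.

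Starts came from protein-coding transcripts of protein-coding genes in GENCODE release 44 lifted to GRCh37 (19794 gene names), and sequences from the GRCh37 primary assembly, the same build as the peaks. The members and the gene lists were chosen with earlier results of these data known. Named were the 20 regions of highest mean score, every gene with a region in the HIF target, bHLH-PAS, luminal and clock lists, the 4 genes with the highest regions of other lists, and the 3 regions nearest each limit. Other regions named were chosen after their values were seen, and 1 gene that the rule names is not reported here. Motif and divergent shares were compared by Fisher's exact test and means by permutation tests (100000 resamples), two-sided, with Benjamini-Hochberg adjustment over the 2 or 3 comparisons of a measure. Alternatives were a 50% mutual overlap of replicate peaks, the higher-scoring 50% of each list, no peak in any other library, gene 5′ ends only, a 500 bp promoter, 400 bp or whole-region windows, each library left out, and, chosen after seeing the data, centring on the bases shared by the replicates. Nothing says whether replicates were separate cultures. The procedures were tested on simulated data. Python 3.11.15, NumPy 2.4.6, SciPy 1.17.1, pysam 0.24.0, Matplotlib 3.10.9 and samtools 1.23.1 were used.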

Additional observations from a re-analysis of the deposited data

How the results depend on the processing

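No paired analysis was possible because the tests compare regions, each of which rests on both replicates of a line. Libraries of T47D and PC-3 are numbered 1 and 2, and those of A549 and HCT-116 are numbered 2 and 3. Only number 2 occurs in all 4 lines. The count of 591 fell to 278 when the higher-scoring 50% of each list was used and to 300 when no peak in any library of another line was allowed, and it ranged from 356 to 1098 when 1 library was left out. Leaving out 1 library also gave 14.0 to 48.0% of members with a peak in another line. For the HIF core against HCT-116-only regions it gave -11.5 to -5.32 points, against regions of all 4 lines -9.83 to -2.46 points, and against T47D-only regions away from promoters 12.6 to 17.6 points. For the CpG ratio it gave -0.100 to -0.0172 against HCT-116-only regions and -0.102 to -0.0198 against regions of all 4 lines. For the mean distance it gave -7.60 to 131 bp against HCT-116-only regions, with -7.60 bp without T47D replicate 2 and a call gained at 131 bp without HCT-116 replicate 3 (permutation test, adjusted p = 2e-05, and 2e-05 to 0.94 over all its alternatives), and -118 to -6.81 bp against regions of all 4 lines. For divergent promoters it gave -4.44 points without HCT-116 replicate 3 to 3.05 points against HCT-116-only regions.

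The CpG difference from HCT-116-only regions lost its call with a mutual overlap of 50% (-0.0359), the higher-scoring 50% (-0.0414), gene 5′ ends only (-0.0246), a 500 bp promoter (-0.0264) and centring on the shared bases (-0.0353, chosen after seeing the data). The distance from regions of all 4 lines lost its call with a mutual overlap of 50% (-101 bp), the higher-scoring 50% (-92.2 bp), no peak elsewhere (-19.7 bp) and centring on the shared bases (-90.5 bp). The distance from HCT-116-only regions, not called under the settings named next, turned negative with the higher-scoring 50% (-4.82 bp), gene 5′ ends (-8.88 bp) and the 500 bp promoter (-2.71 bp), as did the divergent share with no peak elsewhere (-1.96 points). Among the settings that keep all libraries, calls gained were the core against HCT-116-only regions (-12.9 points) and the CpG ratio against all 4 lines (-0.124) with no peak elsewhere, and the core against all 4 lines over 400 bp (-6.77 points). The setting with no peak elsewhere restricted the T47D-only and HCT-116-only regions and left the regions of all 4 lines as they were. The causes were not tested. The depth of the libraries is unknown.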

Other observations

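Of the 66 CpG-poor T47D-only promoter regions, 6 more are given here as examples, picked after their values were seen. VTCN1, which encodes an immune checkpoint ligand, scored 263 in T47D replicate 1 and 234 in replicate 2, and MYO5C, an unconventional myosin gene, 268 and 199. BHLHA15, a transcription factor gene of secretory cells, scored 178 and 155. NHERF1, a scaffold gene of the apical membrane, scored 170 and 67.2. The receptor genes P2RY6 and HCAR1, the latter encoding the lactate receptor, scored 138 and 127, and 82.9 and 157. None of these 6 regions had a peak in a library of another line, as was the case for 60 of all 66.

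The share of protein-coding genes with a T47D-only promoter region was 1.86% on chromosome X (16 of 862 genes), the lowest of the chromosomes counted, which leave out Y, and 5.26% on chromosome 21 (12 of 228), the highest, with 3.48% over all genes. HCT-116-only promoter regions were at 0.580% and 1.32% of the genes of these chromosomes. Chromosome 14 had 4.65%, chromosome 15 had 4.55% and chromosome 11 had 4.49%. The differences were not tested.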
